A study of Mus musculus with 15 samples.

Results

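Bleomycin hydrolase and 8 enzymes that handle drugs and aldehydes in the lung were followed through bleomycin injury of the mouse lung. The 9 genes, Blmh, Cyp2b10, Cyp1a1, Cyp1b1, Cyp2s1, Fmo1, Fmo2, Aldh1a1 and Aox3, were taken by symbol from a count table of 33340 genes, and all 9 passed the filter on low counts that left 17457 genes for testing. Polyadenylated RNA of whole lung was sequenced from C57BL/6 mice, described in the study's methods as males of 10 to 12 weeks. Mice received 1 dose of bleomycin into the trachea at 5 U/kg and lungs were taken at day 7 (4 libraries), day 14 (4 libraries) and day 21 (3 libraries), while the 4 day 0 libraries were titled controls. The treatment label of 3 day 0 libraries gave none, so dosing itself (anaesthesia and liquid in the airway) and the drug cannot be told apart. That of day 0 replicate 4 named bleomycin against its own title. That library was kept as a control, and the counts of the 9 genes called at each later day against day 0 were the same without it.

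Bleomycin hydrolase is a cytosolic cysteine peptidase that removes the amide group of bleomycin and so inactivates the drug, and low activity in lung is part of the textbook account of why this organ is prone to bleomycin injury. Cytochromes P450 and flavin-containing monooxygenases (FMOs) add oxygen to drugs, and aldehyde dehydrogenases and aldehyde oxidases oxidise the aldehydes and ring compounds that follow. In mouse lung, airway club cells are rich in P450 and FMO enzymes, and other members of these families are known from endothelium, fibroblasts and alveolar epithelium.

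The promoter windows of 4 genes are shown because the results turn on these genes. Blmh was above day 0 at days 7 and 14 without being called. Cyp1a1 and Aox3 fell the most at days 14 and 21, and Cyp1b1 was the P450 called on no day. Each window runs from 250 bases before to 50 bases after a RefSeq transcript start (GRCm38.p6), and 8 of the 9 genes had a window. The RefSeq starts of Blmh and Cyp1a1 lie inside the longer gene spans of GENCODE given below. Capitals mark the GC box GGGCGG in Blmh and the core letters bound by the aryl hydrocarbon receptor, GCGTG, in the other 3, each as printed or as its reverse complement. The Blmh window is chr11:76945406-76945705 on the plus strand, the Cyp1a1 window chr9:57697363-57697662 (plus), the Cyp1b1 window chr17:79715012-79715311 (minus) and the Aox3 window chr1:58112886-58113185 (plus).
Blmh: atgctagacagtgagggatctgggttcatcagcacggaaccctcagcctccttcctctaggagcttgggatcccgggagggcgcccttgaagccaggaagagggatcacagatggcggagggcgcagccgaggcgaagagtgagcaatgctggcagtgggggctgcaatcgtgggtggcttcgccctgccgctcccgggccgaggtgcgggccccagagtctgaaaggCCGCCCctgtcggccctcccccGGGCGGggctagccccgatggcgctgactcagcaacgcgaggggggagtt
Cyp1a1: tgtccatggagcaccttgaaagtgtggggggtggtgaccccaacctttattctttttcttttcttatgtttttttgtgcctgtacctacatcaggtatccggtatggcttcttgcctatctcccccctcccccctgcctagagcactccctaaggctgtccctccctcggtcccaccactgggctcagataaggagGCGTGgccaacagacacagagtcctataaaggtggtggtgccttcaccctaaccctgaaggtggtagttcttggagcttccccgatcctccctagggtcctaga
Cyp1b1: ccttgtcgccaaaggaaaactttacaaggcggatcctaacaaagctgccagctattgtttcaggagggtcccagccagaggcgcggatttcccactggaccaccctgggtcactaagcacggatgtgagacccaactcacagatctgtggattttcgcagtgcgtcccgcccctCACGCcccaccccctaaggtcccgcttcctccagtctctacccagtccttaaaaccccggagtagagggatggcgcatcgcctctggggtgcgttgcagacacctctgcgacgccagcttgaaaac
Aox3: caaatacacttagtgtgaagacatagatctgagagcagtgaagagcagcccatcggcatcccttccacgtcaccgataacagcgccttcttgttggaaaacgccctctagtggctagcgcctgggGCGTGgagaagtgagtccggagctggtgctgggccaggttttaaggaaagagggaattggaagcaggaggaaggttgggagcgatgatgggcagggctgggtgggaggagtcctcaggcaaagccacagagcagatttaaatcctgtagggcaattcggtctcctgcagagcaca

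On both strands, GCGTG was found once in Cyp1a1 (54 to 50 bases before the start), once in Cyp1b1, once in Aox3 and at 2 places in Cyp2b10, the phenobarbital-inducible P450. The same 5 letters were in 32.4% of the 32851 mouse promoters of this length, so their presence is a description of these windows. TATAAA lay 30 bases before the start in Cyp1a1 and was in 13.6% of all promoters. GGGCGG was found 2 times in Blmh, 3 times in Cyp2s1 and once in Cyp1b1, against 35.7% of all promoters with at least 1. Blmh also held 1 match to TGACNNNGC, the core of the antioxidant response element, which 12.4% of promoters held, and its window was 67.7% G and C against a median of 52.7%. The windows of Fmo2 and Aldh1a1 held none of the 4 motifs.

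The genes lie on 6 chromosomes (GRCm38, GENCODE M21). Fmo1 (ENSMUSG00000040181, chr1:162829561-162866610) and Fmo2 (ENSMUSG00000040170, chr1:162874317-162898726) are neighbours on the minus strand, and Aox3 (ENSMUSG00000064294, chr1:58113130-58200698, plus) is on the same chromosome. Cyp2s1 (ENSMUSG00000040703, chr7:25802475-25816913, minus) and Cyp2b10 (ENSMUSG00000030483, chr7:25897620-25926624, plus) also lie close together. The others are Blmh (ENSMUSG00000020840, chr11:76924809-76987379, plus), Cyp1a1 (ENSMUSG00000032315, chr9:57687928-57703824, plus), Cyp1b1 (ENSMUSG00000024087, chr17:79701537-79715061, minus) and Aldh1a1 (ENSMUSG00000053279, chr19:20492715-20643465, plus). The values are reads over the exons of each gene. Cyp2s1 shares 260 exon bases with an antisense RNA, Gm26707, that had 26 counts in all 15 libraries together. Reads placed at several sites were left out before counting, so for genes with close relatives (Cyp2b10, Aldh1a1 and Aox3) the values cover the sequence that tells them apart.

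Library totals were 15652008 to 18020661 counts. Levels are given in CPM, the count of a gene divided by the TMM-scaled total of its library and brought to a common library size, and a gene was called where its Benjamini-Hochberg adjusted p in edgeR's quasi-likelihood test was under 0.05 and its fold over 1.5. The share of counts from mitochondrial genes was 2.03% to 4.22% and differed between and within days (day 0 replicates 1 and 2 low, 3 and 4 high, every day 7 library low). Its part in the results was not tested beyond the fits named below. In whole lung, fewer cells of a type and less RNA per cell cannot be told apart.

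Per kilobase of exon, where levels of different genes can be set side by side, the day 0 lung held most Aldh1a1 (345 ± 45.7 CPM per kb, SD, n = 4) and Fmo2 (307 ± 29.9), whose ranges overlapped. Cyp2b10 followed at 194 ± 45.6 CPM per kb and Fmo1 at 72.7 ± 16.8, each apart from its neighbours. Cyp2s1 (35.0 ± 6.86 CPM per kb) and Aox3 (34.1 ± 2.19) overlapped. Cyp1a1 stood at 15.8 ± 2.54 CPM per kb, Blmh at 6.89 ± 0.151 and Cyp1b1 at 2.52 ± 0.926. Bleomycin hydrolase was thus the eighth of the 9 genes per length at day 0, with the narrowest spread (SD 2.19% of the mean, against 6.43% to 36.7% for the others). At day 14, Fmo2 (98.3 ± 11.5 CPM per kb), Aldh1a1 (95.6 ± 17.4) and Cyp2b10 (87.1 ± 25.1) were the highest and overlapped. Blmh, at 8.28 ± 0.513 CPM per kb, then lay above every library of Aox3 (3.58 ± 1.39), Cyp1a1 (1.98 ± 1.02) and Cyp1b1 (1.41 ± 0.950), which overlapped one another.

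At day 7, 5 of the 9 genes were called lower and none higher (16.1% of all tested genes were called at that day, 7.36% as lower). At day 14 and at day 21, 7 were called lower and none higher (day 14: 23.1% of all genes called and 11.2% lower; day 21: 22.5% called and 10.1% lower). The median log2 fold change over the 9 genes was -0.69, -1.65 and -1 at days 7, 14 and 21, against 0.01, 0.02 and 0.02 over all tested genes. All later libraries lay beyond every day 0 library for 6, 8 and 6 of the 9 genes, as they did for 30.8%, 31.1% and 35.5% of all tested genes. The 3 comparisons share their day 0 libraries. Blmh and Cyp1b1 were the only 2 of the 9 not called on any day. The summed level of the 9 genes went from 4807 ± 130 CPM (SD) at day 0 to 2747 ± 218 at day 7 and 1506 ± 135 by day 14, and stood at 2071 ± 463 on day 21.

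**Figure D1:**
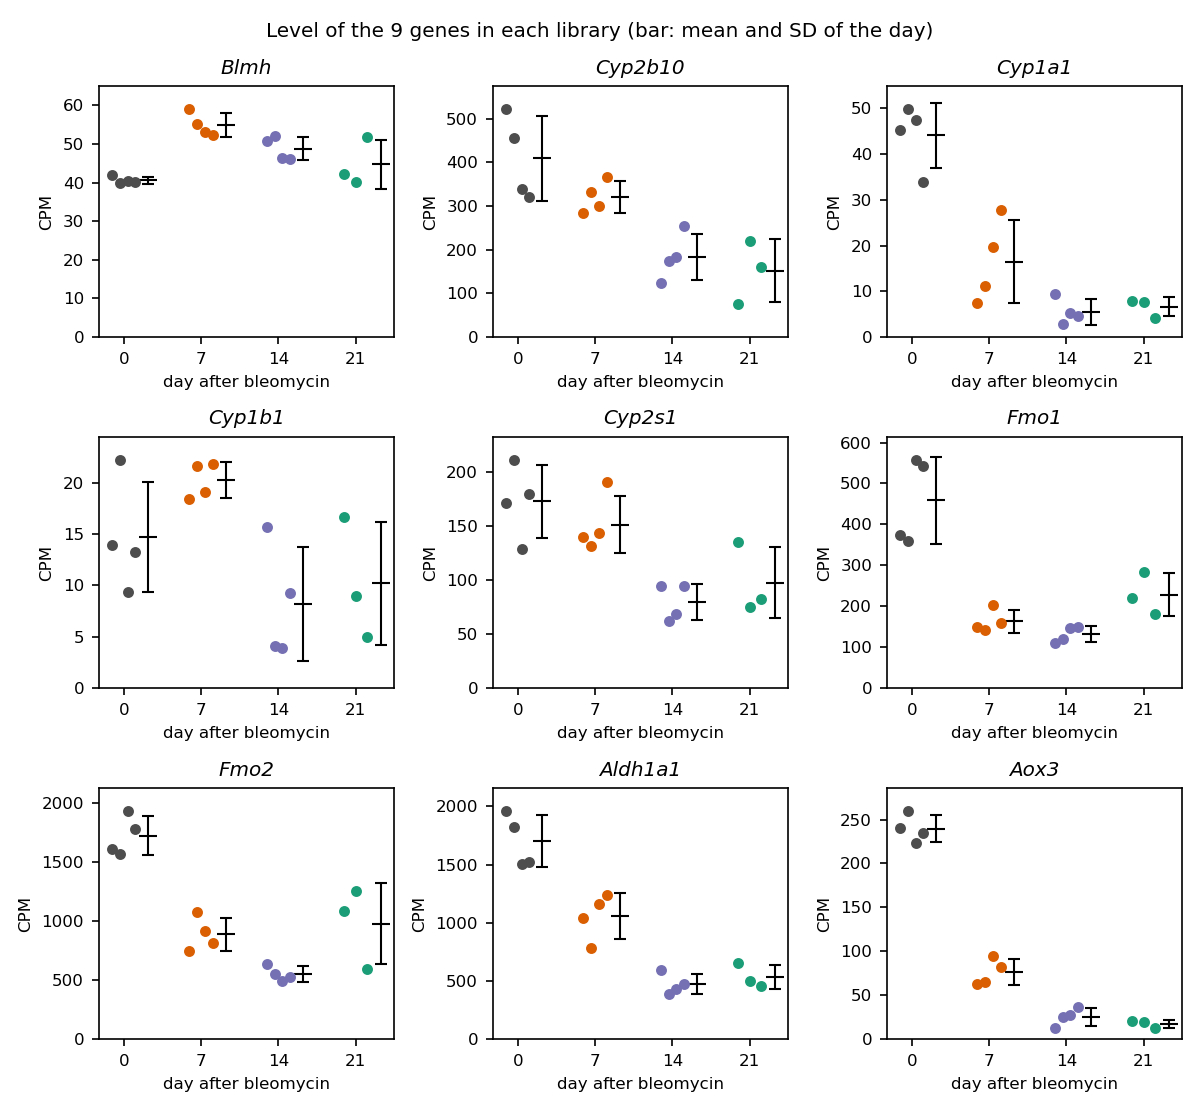
Level in CPM (y axis of each panel, from 0) of the 9 genes in each of the 15 libraries by day (x axis), with the mean and SD of each day beside the points. The 4 Blmh libraries of day 7 (52.4 to 59.1 CPM) lie above those of day 0 (39.9 to 41.9 CPM), while Aox3 goes from 223 to 260 CPM at day 0 down to 12.4 to 36.0 CPM at day 14.

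Blmh was slightly more abundant after bleomycin. It was at 41.9, 39.9, 40.4 and 40.1 CPM in the 4 day 0 libraries and at 59.1, 55.2, 53.2 and 52.4 CPM at day 7. It was at 50.7, 52.0, 46.4 and 46.1 CPM at day 14 and at 42.2, 40.1 and 51.8 CPM at day 21. Every library of days 7 and 14 was above every day 0 library, and at day 21 replicates 1 and 3 were above them, replicate 1 by less than 1 CPM, while replicate 2 was not. The log2 fold change was 0.44 at day 7 (SE 0.0913, 1.35-fold, adjusted p = 0.00348) and 0.27 at day 14 (SE 0.0914, 1.20-fold, adjusted p = 0.0355), both under the 1.5-fold limit, so the gene was not called. On the adjusted p alone, which 25% of all genes passed at day 7 and 33.1% at day 14, Blmh passed on both days. At day 21 the difference was 0.14 (95% interval -0.07 to 0.35, adjusted p = 0.309, where 29.8% of genes passed), and without day 21 replicate 3 it was -0.02. At day 14 the adjusted p was between 0.0365 and 0.113 when 1 library of the 2 days was left out, and of these it stayed under 0.05 only without day 14 replicate 3 or 4. Over the other settings tried it ran from 0.0232 to 0.246. It was 0.053 with a replicate block and 0.08 in a fit of the 2 days alone. With no filter it was 0.199, and in libraries of like mitochondrial share 0.246. The day 14 difference of Blmh is thus not firm.

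Other cytosolic peptidases gave a background for Blmh. Of 10 such genes, 3 were called higher at day 7, 2 at day 14 and 1 at day 21, and none lower (16.1%, 23.1% and 22.5% of all tested genes were called, higher or lower), with a median log2 fold change of 0.53, 0.35 and 0.30. Lap3, a leucine aminopeptidase, went from 39.0 to 47.8 CPM at day 0 to 77.1 to 97.5 CPM at day 7 with no overlap (log2 fold change 1.06, SE 0.117, adjusted p = 4.45e-05). It was still higher at day 14 (0.94, adjusted p = 3.23e-05) and at day 21 (0.71, adjusted p = 0.000658). Blmh thus differed from day 0 by less than the median of these peptidases on each day; the difference between the gene and the list was not tested. Slc22a16, a carnitine transporter that has been linked to bleomycin uptake into cells, had 1 count in all 15 libraries and could not be compared.

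Of the 2 CYP1 genes, classic targets of the aryl hydrocarbon receptor, Cyp1a1 was called lower on each of the 3 days and Cyp1b1 on none, and the difference between the 2 genes was not tested. Cyp1a1, which oxidises aromatic hydrocarbons, was at 45.2, 49.9, 47.6 and 33.9 CPM at day 0 and at 7.53, 11.1, 19.7 and 27.7 CPM at day 7. It was at 9.51, 2.81, 5.26 and 4.53 CPM at day 14 and at 7.92, 7.75 and 4.24 CPM at day 21. No later library reached the lowest day 0 library, and the day 7 libraries were spread more widely than those of any other day (SD 54.8% of the mean at day 7 and 51.5% at day 14). Cyp1a1 fell by 1.42 on the log2 scale at day 7 (SE 0.368, 2.68-fold, adjusted p = 0.0122). It fell by 2.99 at day 14 (SE 0.397, 7.96-fold, adjusted p = 5.68e-05) and fell by 2.73 at day 21 (SE 0.438, 6.65-fold, adjusted p = 0.000323).

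Cyp1b1, the family member known from stromal cells, was at 14.0, 22.3, 9.40 and 13.3 CPM at day 0 and at 18.4, 21.7, 19.1 and 21.8 CPM at day 7. It was at 15.7, 4.08, 3.89 and 9.30 CPM at day 14 and at 16.7, 8.95 and 4.94 CPM at day 21. The groups overlapped on each day and no comparison with day 0 was called. The log2 fold change was 0.46 at day 7 (95% interval -0.41 to 1.33, adjusted p = 0.436), -0.84 at day 14 (-1.73 to 0.05, adjusted p = 0.137) and -0.53 at day 21 (-1.49 to 0.43, adjusted p = 0.404). The day 14 comparison was called without day 14 replicate 1, where the log2 fold change was -1.37 (adjusted p = 0.0184), and ranged from -1.02 to -0.59 with any other single library of the 2 days left out, none of them called. The values of the other days also moved, with no call among them. At day 21 the log2 fold change was -1.12 without day 21 replicate 1 (adjusted p = 0.117), -0.25 without day 21 replicate 3 and -0.30 without day 0 replicate 2. Leaving out day 0 replicate 2 gave 0.70 for day 7 and leaving out day 0 replicate 3 gave 0.27, while the value was 0.046 once the mitochondrial share entered the fit and 0.14 between libraries of like share. The width of these intervals leaves a fall or a rise of this gene undecided.

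Cyp2b10 and Cyp2s1 fell at day 14 but were not called at day 7. Cyp2b10, which the constitutive androstane receptor induces in liver, was at 522.8, 455, 338 and 321 CPM at day 0 and at 284, 332, 300.1 and 367 CPM at day 7. It was at 125, 174, 183 and 253 CPM at day 14 and at 76.5, 219 and 160.1 CPM at day 21. Day 14 and day 21 lay below day 0 in full, with log2 fold changes of -1.15 (SE 0.271, 2.23-fold lower, adjusted p = 0.00436) and -1.43 (SE 0.301, 2.69-fold lower, adjusted p = 0.00239). At day 7 the groups overlapped (-0.35, adjusted p = 0.354), and in the libraries of like mitochondrial share (4 of day 7 against 2 of day 0) the difference was -0.63 with an adjusted p of 0.0106. The like-share libraries of day 14 (3 against 2 of day 0) gave a smaller fall than all libraries, -0.71 with an adjusted p of 0.0347.

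Cyp2s1, an epithelial P450, was at 171, 211, 129 and 179.8 CPM at day 0 and at 139.6, 131, 143 and 190.1 CPM at day 7. It was at 94.1, 61.9, 68.0 and 94.3 CPM at day 14 and at 135, 75.0 and 82.2 CPM at day 21. The day 7 libraries lay inside the range of day 0, those of day 14 below it, and day 21 replicate 1 reached back into it. The log2 fold change was -0.19 at day 7 (adjusted p = 0.518), -1.12 at day 14 (SE 0.208, 2.17-fold lower, adjusted p = 0.00085) and -0.83 at day 21 (SE 0.226, adjusted p = 0.0123). The summed level of 6 ciliated cell markers moved beside it and beside Cyp1b1. That sum was 179 to 292 CPM at day 0 and 213 to 359 at day 7. It was 60.8 to 178 at day 14 and 86.9 to 228 at day 21. Of the 6 markers, 0, 5 and 1 were called lower at days 7, 14 and 21, against 7.36%, 11.2% and 10.1% of all tested genes. Replicate 1 was the highest library of day 14 and of day 21 for this sum and for Cyp1b1. It was also the highest for activated fibroblast markers (6457 and 4414 CPM) and for smooth muscle and pericyte markers (1377 and 1405 CPM). The same held for adventitial fibroblast (264 and 329 CPM) and heart markers (39.4 and 721 CPM). The part of ciliated cells and of these other cells in the results was not tested.

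Both FMOs were called lower on each of the 3 days. Fmo2, the main FMO of lung, was at 1612, 1568, 1934 and 1783 CPM at day 0 and at 749.8, 1074, 914 and 816 CPM at day 7. It was at 640.2, 550.0, 489 and 526 CPM at day 14 and at 1089, 1253 and 593 CPM at day 21. Every later library was below every day 0 library, and at day 21 replicates 1 and 2 were above all 4 of day 14 while replicate 3 was not. The gene fell by 0.96 on the log2 scale at day 7 (SE 0.194, 1.94-fold, adjusted p = 0.00296), by 1.65 at day 14 (SE 0.198, 3.13-fold, adjusted p = 2.33e-05) and by 0.82 at day 21 (SE 0.212, 1.76-fold, adjusted p = 0.00902).

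Fmo1, the neighbouring gene and a major FMO of liver and kidney in mice, was at 375, 359.6, 558 and 542 CPM at day 0 and at 148, 142, 204 and 159 CPM at day 7. It was at 110.1, 119, 146 and 149 CPM at day 14 and at 220.0, 284 and 182 CPM at day 21. The day 0 libraries split into a lower and a higher pair, the same pairs that had the low and the high mitochondrial share, yet all later libraries lay below both. The summed level of 5 fat cell markers was also lower in the first pair (19.8 and 42.8 CPM) than in the second (68.7 and 65.2 CPM). That of 6 heart markers split the same pairs more widely, at 19.9 and 39.5 CPM against 258 and 179 CPM. On the later days the highest libraries differed. Day 7 replicate 4 had the most fat (137 CPM) and heart markers (616 CPM) of its day. Fmo1 was highest there in replicate 3 (fat 29.0 CPM, heart 53.0 CPM). Day 21 replicate 1 had the highest heart sum (721 CPM), while Fmo1 was highest in replicate 2 (heart 15.2 CPM). The part of fat and heart tissue in the Fmo1 values was not tested. The log2 fold change was -1.49 at day 7 (SE 0.185, adjusted p = 8.59e-05), -1.80 at day 14 (SE 0.187, 3.49-fold lower, adjusted p = 6.9e-06) and -1 at day 21 (SE 0.201, adjusted p = 0.00167). A fit that also took the mitochondrial share into account gave -1.17 for day 7 (adjusted p = 0.00122).

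Aldh1a1, a cytosolic aldehyde dehydrogenase that makes retinoic acid from retinal, had the highest mean of the 9 per length at day 0, with a range that overlapped that of Fmo2. It was at 1962, 1822, 1503 and 1526 CPM at day 0 and at 1040.0, 784, 1165 and 1235 CPM at day 7. It was at 590.2, 392, 431 and 475 CPM at day 14 and at 654, 499 and 453 CPM at day 21. The days did not overlap with day 0, nor did day 7 overlap with day 14. The gene fell by 0.69 on the log2 scale at day 7 (SE 0.176, 1.61-fold, adjusted p = 0.0109). It fell by 1.85 at day 14 (SE 0.18, 3.61-fold, adjusted p = 4.45e-06) and fell by 1.67 at day 21 (SE 0.199, 3.18-fold, adjusted p = 3.1e-05). The day 7 call rested on replicate 2, the lowest of its group: without it the fall was 0.57, under the fold limit (adjusted p = 0.0384).

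Aox3, an aldehyde oxidase that oxidises aldehydes and aromatic nitrogen rings, had the largest fall of the 9 in the edgeR fit of all 15 libraries. It was at 241, 259.9, 223 and 234 CPM at day 0 and at 63.1, 65.0, 94.1 and 81.5 CPM at day 7. It was at 12.4, 25.0, 27.3 and 36.0 CPM at day 14 and at 21.0, 19.3 and 12.2 CPM at day 21. Days 0, 7 and 14 were fully apart, and day 21 overlapped day 14. The gene fell by 1.66 on the log2 scale at day 7 (SE 0.245, 3.15-fold, adjusted p = 0.000329), by 3.25 at day 14 (SE 0.262, 9.51-fold, adjusted p = 1.3e-06) and by 3.77 at day 21 (SE 0.303, 13.7-fold, adjusted p = 2.02e-06). Its rank above Cyp1a1 was not firm before day 21. At day 14 Cyp1a1 was at -3.408 and Aox3 at -3.044 without day 14 replicate 1. In libraries of like mitochondrial share they were at -3.284 and -2.969. At day 7 they were at -1.698 and -1.385 with the mitochondrial share in the fit, and at -1.788 and -1.693 without day 7 replicate 4.

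**Figure D2:**
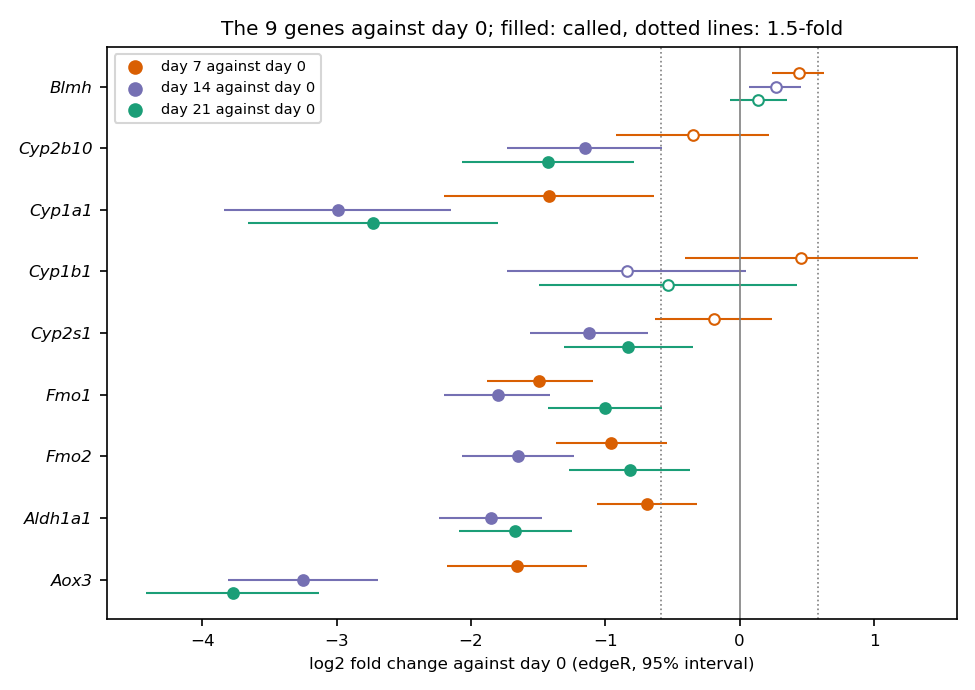
Log2 fold change of each of the 9 genes (y axis) at days 7, 14 and 21 against day 0 (x axis), with the 95% interval of edgeR's fit as lines; filled points were called and dotted lines mark a 1.5-fold change. Blmh lies at 0.44, 0.27 and 0.14 inside the dotted lines, and Aox3 and Cyp1a1 lie furthest to the left at day 14 (-3.25 and -2.99).

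Between day 7 and day 14, 5 of the 9 genes were called lower (6% of all genes were called). Aox3 fell by a further 1.59 on the log2 scale (SE 0.248, adjusted p = 0.00447), Cyp1a1 by 1.57 (SE 0.386, adjusted p = 0.0264) and Aldh1a1 by 1.16 (SE 0.177, adjusted p = 0.00392). Cyp2s1 fell by 0.92 (SE 0.207, adjusted p = 0.0192) and Fmo2 by 0.69 (SE 0.194, adjusted p = 0.043), while Fmo1 did not pass (-0.32, 95% interval -0.70 to 0.07, adjusted p = 0.298). Blmh was at -0.17 (-0.37 to 0.02, adjusted p = 0.253), with all 4 day 14 libraries below those of day 7. This count was 2 once the mitochondrial share was added to the fit and 2 to 6 when 1 library was left out. The count was 2 without day 14 replicate 2 or 3 or day 7 replicate 4, and 3 without day 14 replicate 4 or day 7 replicate 3.

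From day 7 to day 21, 3 of the 9 were called lower (9.54% of all genes were called), against 5 in DESeq2 and 5 with no filter on low counts. They were Aox3 (log2 fold change -2.12, SE 0.282, adjusted p = 0.000778), Cyp2b10 (-1.08, SE 0.297, adjusted p = 0.0292) and Aldh1a1 (-0.98, SE 0.194, adjusted p = 0.00649). From day 14 to day 21 none of the 9 was called, and edgeR called 0% of all genes, although 1714 genes had an unadjusted p under 0.05 and DESeq2 called 106. The values furthest from 0 there belonged to the FMOs. Fmo1 was 0.80 higher at day 21 than at day 14 on the log2 scale (95% interval 0.39 to 1.22, unadjusted p = 0.000883, adjusted p = 0.266), with all 3 libraries above all 4. Fmo2 was 0.83 higher (0.39 to 1.27, unadjusted p = 0.00108, adjusted p = 0.268), with 2 of 3 libraries above. DESeq2 called 2 of the 9 genes in this comparison.

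Of 80 other drug-metabolizing enzymes, 64 could be tested. At day 7, 17 were called lower and 3 higher, 20 in all, against 12 once the mitochondrial share entered the fit (over all genes, 2818 and 1269). At day 14, 29 were lower and 4 higher, and at day 21, 28 were lower and 7 higher, with a median log2 fold change of -0.36, -0.77 and -0.65. Of all tested genes 7.36%, 11.2% and 10.1% were called lower on these days. By family at day 14, 10 of 19 P450s tested were lower and none higher. Of 15 other FMOs, aldehyde dehydrogenases and aldehyde oxidases, 7 were lower and 1 higher. Of 15 hydrolases and reductases, 7 were lower and 2 higher, and of 15 conjugating enzymes 5 were lower and 1 higher. The summed level of the 80 genes was 13330 to 15220 CPM at day 0, 7002 to 8079 at day 7, 4198 to 4914 at day 14 and 3669 to 5188 at day 21, with no overlap of any later day with day 0.

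**Figure D3:**
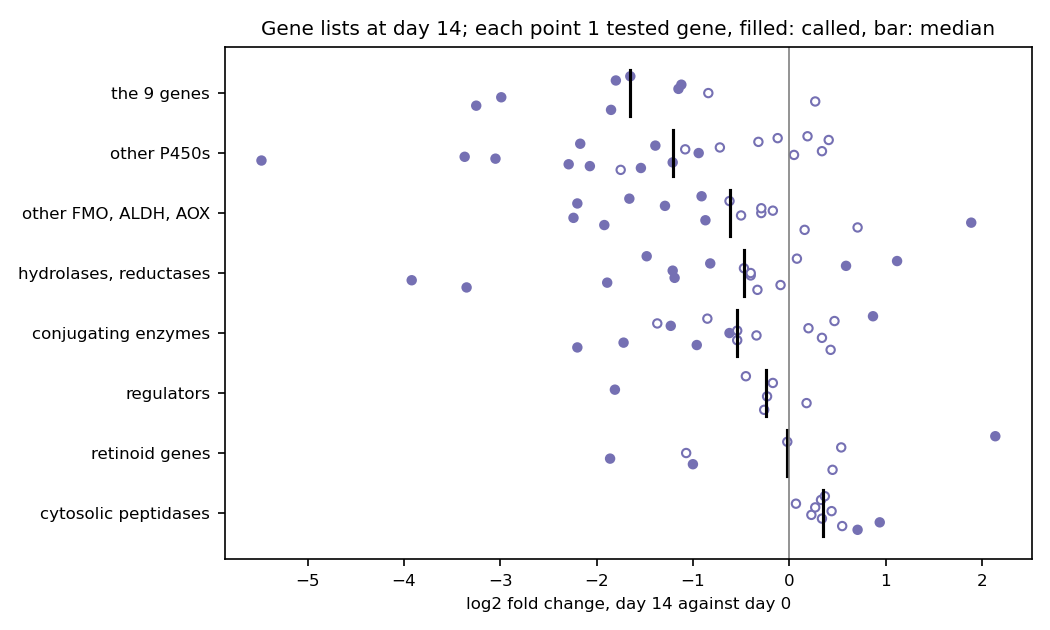
Log2 fold change at day 14 against day 0 (x axis) of each tested gene of 8 lists (y axis), filled where called, with a bar at the median of each list. The median is -1.65 for the 9 genes, -1.21 for other P450s and 0.35 for cytosolic peptidases.

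The largest fall among these enzymes at day 14 was in Cyp2e1, the ethanol-inducible P450. It was at 5.37, 15.1, 13.7 and 18.1 CPM at day 0 and at 0.177, 0.128, 0.114 and 0.724 CPM at day 14 (log2 fold change -5.48, SE 0.785, adjusted p = 0.000109). Cyp2e1 was at 18.1 CPM in day 7 replicate 4 and at 1.73 to 6.54 CPM in the other 3 of that day. The summed level of 5 fat cell markers stood alike, at 137 CPM in day 7 replicate 4 where the other 3 had 9.43 to 29.0, at 19.8 to 68.7 at day 0 and at 1.30 to 3.51 at day 14. All 5 fat markers were called lower at day 14 and 4 at day 21, against 11.2% and 10.1% of all tested genes. The part of fat tissue in the Cyp2e1 values was not tested.

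The other named falls were in 4 enzymes of different families. Cyp2f2, the naphthalene-activating P450 of club cells, was at 2067, 2238, 1792 and 1791 CPM at day 0 and at 225, 211, 189 and 329 CPM at day 14 (log2 fold change -3.05, SE 0.316, adjusted p = 6.89e-06). Cbr2, a lung carbonyl reductase, was at 3794, 3825, 5865 and 4618 CPM at day 0 and at 336, 491, 359 and 595 CPM at day 14 (-3.35, SE 0.315, adjusted p = 3.72e-06). Both fell already at day 7 (-1.33, adjusted p = 0.00531; -1.66, adjusted p = 0.00123). Ces1f, a carboxylesterase, fell by 3.92 on the log2 scale at day 14 (SE 0.412, adjusted p = 7.43e-06) and Aldh3a1 by 2.24 (SE 0.346, adjusted p = 0.000198). In each of these 4 genes the day 14 libraries lay below all of day 0.

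Some enzymes rose. Aldh1b1, a mitochondrial aldehyde dehydrogenase, was at 1.42, 1.69, 1.65 and 0.781 CPM at day 0 and at 7.21, 3.51, 4.81 and 5.07 CPM at day 14 (log2 fold change 1.89, SE 0.353, adjusted p = 0.000878). It was also higher at day 7 (1.60, adjusted p = 0.00489) and at day 21 (2.06, adjusted p = 0.000777). Ephx2, soluble epoxide hydrolase, rose by 1.12 at day 14 (SE 0.288, adjusted p = 0.00766) and the glucuronosyltransferase Ugt1a7c by 0.87 (SE 0.315, adjusted p = 0.0435), the latter with 1 library inside the day 0 range. Cyb5r3, a reductase that passes electrons to cytochrome b5, rose by 0.59 (SE 0.139, adjusted p = 0.0042), from 335 to 433 CPM at day 0 to 501 to 732 CPM. Por, the reductase that supplies electrons to the microsomal P450s, went the other way. It was at 460.3, 519.8, 485 and 439.7 CPM at day 0 and at 183, 181, 146 and 172 CPM at day 14, and fell by 0.87, 1.48 and 1.58 on the log2 scale at days 7, 14 and 21 (SE 0.134, 0.136 and 0.151, adjusted p = 0.000437, 2.99e-06 and 6.2e-06).

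**Figure D4:**
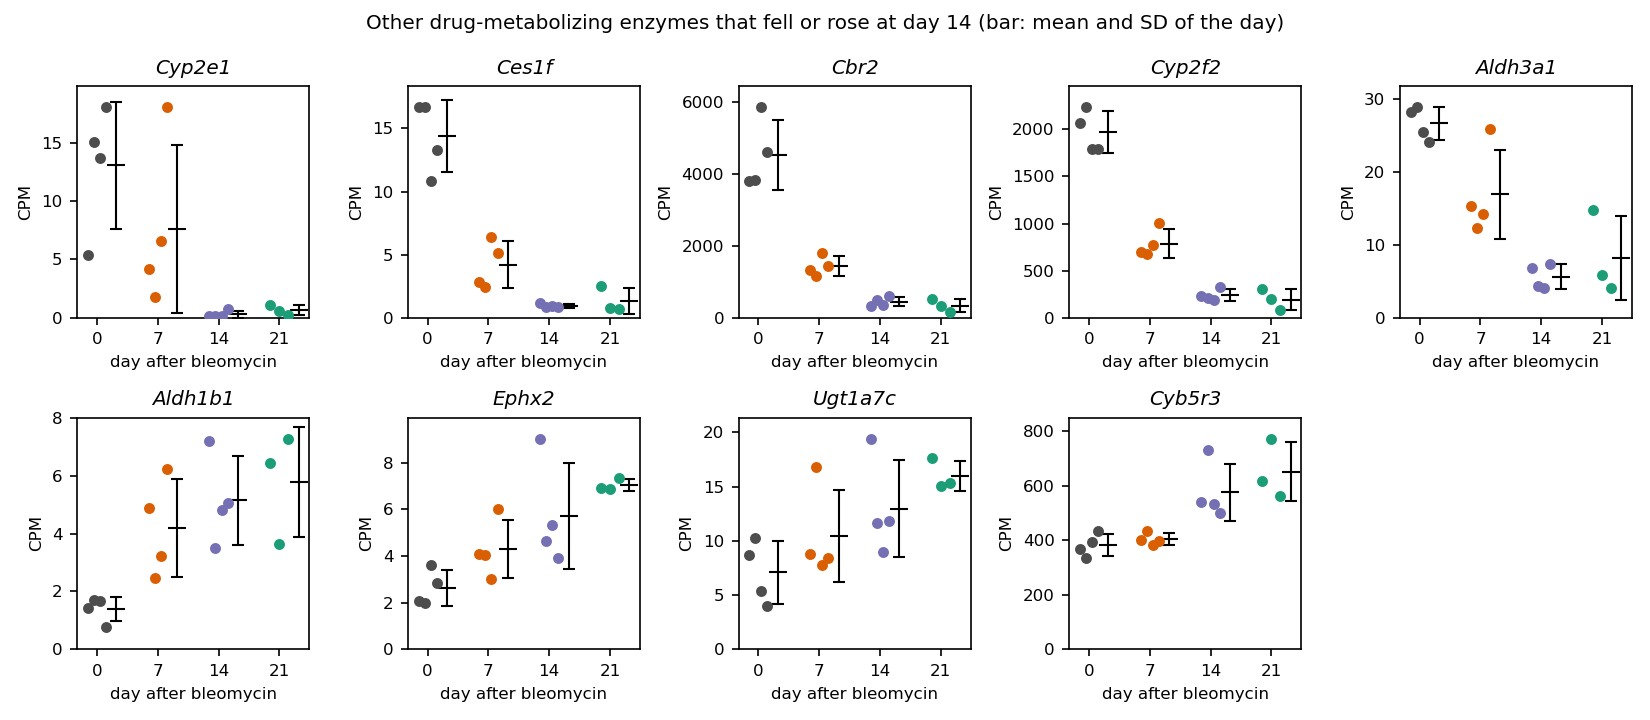
Level in CPM (y axis of each panel, from 0) by day (x axis) of 5 other enzymes among those with the largest falls and the 4 with the largest rises at day 14, 1 point per library with the mean and SD of each day beside them. Cyp2f2 goes from 1791 to 2238 CPM at day 0 to 189 to 329 CPM at day 14, and Aldh1b1 from 0.781 to 1.69 CPM to 3.51 to 7.21 CPM.

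Of 7 genes that regulate these enzymes, 6 could be tested, and 1 was called lower at day 14 and none on the other days, where 16.1%, 23.1% and 22.5% of all tested genes were called at days 7, 14 and 21. A count of 1 among 6 is near that background. Ahr, the aryl hydrocarbon receptor, was at 77.8 to 92.2 CPM at day 0 and at 58.1 to 81.5 CPM at day 14 (log2 fold change -0.26, 95% interval -0.54 to 0.02, adjusted p = 0.145), beside the 7.96-fold lower Cyp1a1 of that day. At day 7, when Cyp1a1 was also lower, all 4 libraries of Ahr (61.1 to 71.7 CPM) and of Arnt, its partner (80.5 to 85.4 CPM against 87.1 to 103 CPM), lay below every day 0 library. The log2 fold changes then were -0.37 (adjusted p = 0.0482) and -0.23 (adjusted p = 0.0792), under the fold limit. At day 14 Arnt was at -0.23 (-0.42 to -0.03, adjusted p = 0.0732) and its repressor Ahrr at 0.18 (-1.32 to 1.68, adjusted p = 0.868), from under 1 CPM in every library. Tiparp, another target and repressor of the receptor, was at 50.4, 51.1, 67.6 and 60.7 CPM at day 0 and at 43.0, 45.2, 39.0 and 41.6 CPM at day 14, with no overlap (-0.45, SE 0.155, adjusted p = 0.0366) but under the fold limit. Rxra, the common partner of nuclear receptors, was at -0.17 (-0.42 to 0.08, adjusted p = 0.277). Nr1i2, the pregnane X receptor, was called lower at day 14 (-1.81, SE 0.591, adjusted p = 0.0276) at a low level of 0.0572 to 0.604 CPM against 0.906 to 1.67 CPM. Nr1i3, the constitutive androstane receptor, was at 0 in 12 of 15 libraries and at no more than 0.128 CPM in the others, so it could not be compared beside Cyp2b10. These are RNA levels, and receptor activity was not measured.

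Of 7 retinoid genes around Aldh1a1 that could be tested, 1 was called higher and none lower at day 7, and 1 higher and 2 lower at days 14 and 21, beside the same shares of all genes. The 2 lower genes were Lrat and Dhrs3. Lrat, which esterifies retinol for storage, was at 33.4 to 63.4 CPM at day 0, 37.95 to 82.0 at day 7, 5.93 to 25.8 at day 14 and 3.53 to 10.9 at day 21, and fell by 1.86 on the log2 scale at day 14 (SE 0.42, adjusted p = 0.00333) and fell by 2.82 at day 21 (SE 0.493, adjusted p = 0.000634). Dhrs3, which reduces retinal to retinol, was at 118 to 158 CPM at day 0, 76.2 to 108.5 at day 7, 57.0 to 96.7 at day 14 and 45.7 to 62.5 at day 21, and fell by 1 at day 14 (SE 0.173, adjusted p = 0.000493) and fell by 1.33 at day 21 (SE 0.193, adjusted p = 0.000145). Both lay below all day 0 libraries on those days. Stra6, the retinol uptake receptor, rose from 0.112 to 0.317 CPM at day 0 to 0.423 to 1.18 CPM at day 14 (log2 fold change 2.14, SE 0.465, adjusted p = 0.00258), a change between low levels. It also rose at day 7 (2.05, adjusted p = 0.00561) and day 21 (2.39, adjusted p = 0.0018).

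Summed markers of several lung cell types were lower after bleomycin, and their part in the results was not tested. The summed level of 6 club cell markers, mostly Scgb1a1, was 25130 to 32080 CPM at day 0, 8693 to 11570 at day 7, 2783 to 6989 at day 14 and 1391 to 7172 at day 21. Of the 6, 2, 3 and 2 were called lower at days 7, 14 and 21, and none was at 0 throughout a day. Of all tested genes 7.36%, 11.2% and 10.1% were called lower on these days, which is the background for the lists below as well. The sum is not the course of each gene, since the median log2 fold change of the 6 was 0.13 at day 7, -2.04 at day 14 and -1.13 at day 21. Mean levels of 4 of the 6 were above day 0 at day 7 without being called, among them Scgb3a2 (585 CPM at day 0 and 609.6 at day 7) and Bpifa1 (22.4 and 106 CPM), and at day 21 the means of Bpifa1 (350.4 CPM) and Scgb3a1 (271 CPM against 46.9 at day 0) were above day 0, each with 1 of 3 libraries above all of day 0. Scgb1a1, the secretoglobin of club cells, fell by 2.47 on the log2 scale at day 14 (SE 0.344, adjusted p = 8.38e-05). The sum of 8 alveolar type 2 cell markers was 29050 to 39230 CPM at day 0, 19500 to 28010 at day 7, 7676 to 22180 at day 14 and 4899 to 10490 at day 21, with 0, 5 and 8 called lower. The sum of 6 alveolar fibroblast markers was 3745 to 4444 CPM at day 0, 2264 to 2893 at day 7, 1355 to 2064 at day 14 and 1464 to 2593 at day 21, with 1, 3 and 4 called lower. Here too the sum is not the course of each gene. The median log2 fold change of these 6 was -0.23, -0.75 and -0.9 at days 7, 14 and 21. For 5 endothelial markers it was 2265 to 2598 CPM at day 0, 1589 to 2017 at day 7, 1287 to 2098 at day 14 and 1657 to 2023 at day 21, with 2, 1 and 0 called lower.

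The sum of 5 general capillary markers was 1992 to 2194 CPM at day 0, 1219 to 1567 at day 7, 1191 to 1486 at day 14 and 1553 to 2315 at day 21, with 1, 1 and 0 called lower. At day 21 replicate 2 was the highest library for this sum, for Fmo1 and for Fmo2. It was also the highest of that day for endothelial (2023 CPM), aerocyte (403 CPM) and alveolar fibroblast markers (2593 CPM). The same held for alveolar type 1 (5708 CPM) and type 2 cell markers (10490 CPM). At days 0, 7 and 14 the capillary sum was highest in replicates 4, 3 and 3. Fmo1 was highest in replicates 3, 3 and 4 on those days, and Fmo2 in replicates 3, 2 and 1. Of 5 aerocyte markers 2, 3 and 4 were called lower on days 7, 14 and 21, while of 4 activated fibroblast markers 2, 4 and 4 and of 6 macrophage markers 2, 4 and 3 were called higher. Of the macrophage markers 1 was lower at day 7. Of 8 smooth muscle and pericyte markers 2, 2 and 4 were called higher and 0, 1 and 1 lower on the 3 days. Of 4 leukocyte markers 1, 1 and 2 were lower and none higher (median log2 fold change -1.55 at day 21). Of 7 alveolar type 1 cell markers 1 was higher on each day and 1, 0 and 2 were lower, and of 4 adventitial fibroblast markers 1, 0 and 0 were higher and 0, 1 and 1 lower. Of all tested genes 16.1%, 23.1% and 22.5% were called on the 3 days, higher or lower. A count of 1 in these short lists is near that background. Markers of tissue beside the lung varied by library. The sum of 6 heart markers reached 616 CPM in day 7 replicate 4 and 721 CPM in day 21 replicate 1, and lay between 15.2 and 258 CPM in the remaining 13 libraries. The sum of 4 liver markers was at most 1.45 CPM in any library, so the defining markers of liver, the organ best known for these enzymes, were near 0.

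**Figure D5:**
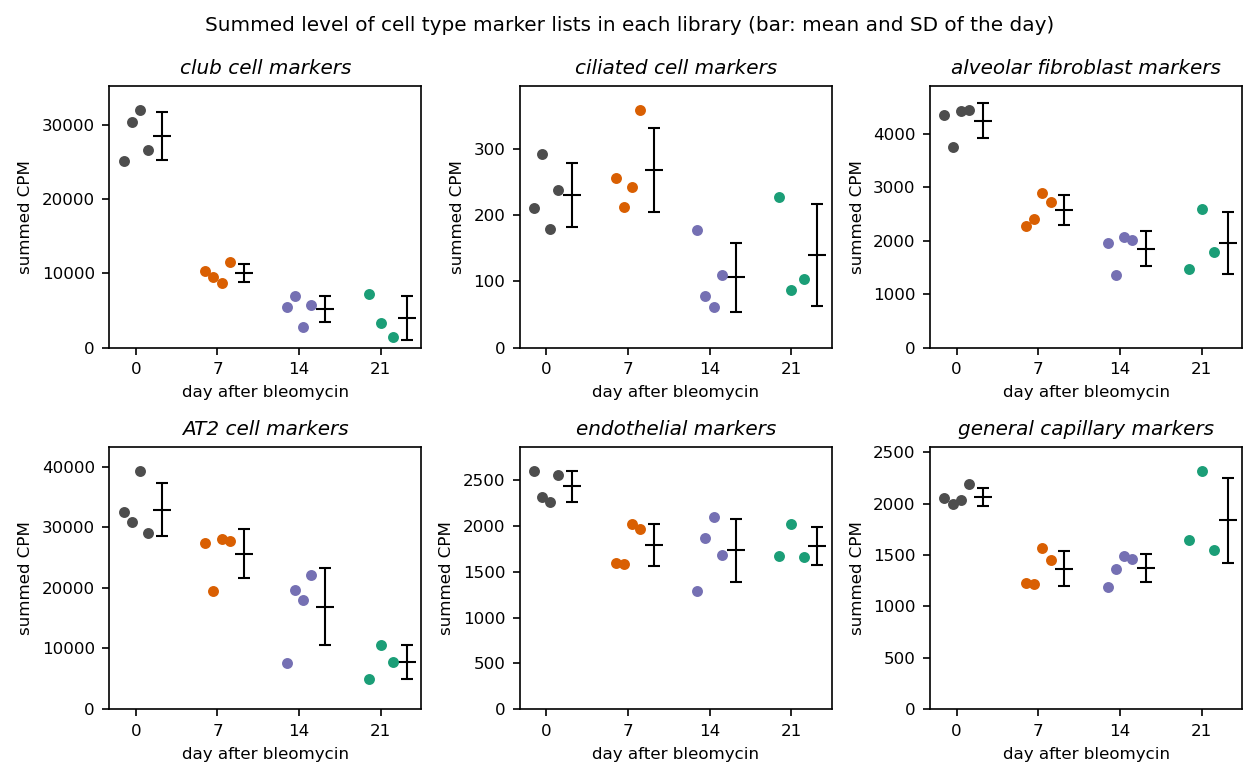
Summed level in CPM (y axis of each panel, from 0) of 6 lists of cell type markers in each library by day (x axis), with the mean and SD of each day beside the points. Club cell markers go from 25130 to 32080 CPM at day 0 to 2783 to 6989 CPM at day 14, and ciliated cell markers from 179 to 292 CPM to 60.8 to 178 CPM.

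The genes whose log2 CPM followed each of the 9 most closely over the 15 libraries were found among 11816 genes with a mean of at least 5 CPM. The points share libraries, days and depth, so the correlations describe likeness of pattern over these libraries. Blmh was nearest to Actg1, a cytoskeletal actin (Pearson r = 0.976), Tuba1b, a tubulin (0.963), and Pcna, the replication clamp (0.963). Cyp2s1 was nearest to Cfap70 (0.988), Ccdc180 (0.985) and Tcp11 (0.977), the first a protein of cilia and flagella, and Cyp1b1 to Clic6 (0.959), Dnah9, a dynein of motile cilia (0.959), and Dsg2 (0.954). Fmo1 was nearest to Cbx7 (0.976), Tek, the angiopoietin receptor of endothelium (0.951), and Dgke (0.950). Fmo2 was nearest to Slc25a29 (0.958), Rora (0.949) and the sulfotransferase Sult1a1 (0.949). Aldh1a1 was nearest to Ms4a4d (0.980), Ces1f (0.979) and Gsn, which codes for gelsolin (0.976), and Cyp1a1 to Plpp3 (0.964), Ms4a4d (0.958) and Agmo (0.954). Aox3 was nearest to the carboxylesterase Ces1d (0.985), Cbr2 (0.980) and Atp6v1c2 (0.978), and Cyp2b10 to Prkcz (0.986), Apbb1 (0.981) and the aldehyde dehydrogenase Aldh3a2 (0.978). Among the 9 themselves, Aldh1a1 and Cyp1a1 (0.950) and Aldh1a1 and Aox3 (0.919) had the most alike patterns, and Blmh and Fmo1 the least alike (-0.789).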

How the data were processed

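The 9 genes and all gene lists were chosen with earlier results of these data known. Libraries were made from whole-lung polyadenylated RNA with a NEBNext Ultra kit and read as 150 bp pairs. The authors trimmed the reads, aligned them to mm10 (GRCm38) with HISAT2 2.1.0, left out reads placed at several sites and deposited raw counts per gene from HTSeq 0.6.0; per the submitters' processing notes DESeq2 1.40.2 was used for their own tests. The annotation release and the strand setting are not given in the sources used here. Of the 33340 IDs, 33267 were matched to symbols in GENCODE M21. No columns of the authors' own comparisons were present.

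Groups were the 4 days in the titles, with 4, 4, 4 and 3 libraries. The series text speaks of 3 replicates a time point, and the titles were followed. Nothing in the labels says that each library is 1 mouse, so the p-values measure the spread between these libraries. The deposited counts were fitted with edgeR 4.0.16 (R 4.3.3; filterByExpr, TMM factors of 0.970 to 1.02, quasi-likelihood test, day as the single factor over 15 libraries, common biological coefficient of variation 22.8%). P-values were adjusted over all 17457 genes. Intervals are 95% t intervals of that fit. CPM per kb divides by merged exon length. Log2 CPM for likeness used a prior count of 2. Alternatives were DESeq2 1.42.0, limma voom 3.58.1, other scalings and filters, the mitochondrial share as a covariate or libraries of like share (under 2.5% for day 7, over 3.5% for day 14), a replicate block, and each library left out. On simulated counts for day 7 against day 0 (16815 genes, edgeR), 99 of 100 genes changed 4-fold and 84 of 100 changed 2-fold were called, with 9 false calls. The changed genes were drawn only from those above a minimum level at day 0, so the recovery does not cover genes at low levels. The simulated libraries held no difference in mitochondrial share. No 2 libraries were identical. Promoter windows came from RefSeq.

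Named besides the 9 genes were the regulators, Por and Slc22a16, the 6 largest called falls and 4 largest called rises at day 14 among the other enzymes with a mean of at least 1 CPM, the most changed called retinoid gene and peptidase, and for each of the 9 the 3 genes of most similar pattern, leaving out predicted genes. Scgb1a1, Scgb3a1, Scgb3a2 and Bpifa1 (club cell list) and Lrat and Dhrs3 (retinoid list) were named after their values were seen. The result of 1 enzyme that this rule named is not reported here.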

Additional observations from a re-analysis of the deposited data

Results flagged for a closer look

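Within each group of 4 libraries, the CPM of 36 genes (the 9, the other enzymes, regulators, retinoid genes and peptidases chosen for naming, and 4 club cell genes) and 11 sums (9 marker lists, the 9 genes and the other enzymes) was examined for 1 library far from the other 3 by Dixon's test at the 95% level, which chance passes in about 1 group of 20. The genes named for likeness of pattern were not examined. Of 138 groups whose libraries were not all equal, 19 stood out, none of them in the 9 genes or their sum. Cyp2e1 stood out in day 14 replicate 4 with 0.724 CPM, where the 3 others of that day had 0.114 to 0.177 CPM. Ugt1a7c reached 16.8 CPM in day 7 replicate 2, above the 7.74 to 8.78 CPM of the rest. Stra6 reached 0.317 CPM in day 0 replicate 3 (0.112 to 0.130 CPM in the rest), and Nr1i2 reached 1.43 CPM in day 7 replicate 4 (1.04 to 1.08 CPM in the rest). Dhrs3 was low in day 7 replicate 2, at 76.2 CPM against 103.8 to 108.5 CPM. Another 3 cases rest on 1 or 2 counts in a single library and 0 in the rest of the group. They were Nr1i3 in day 0 replicate 4 (0.0558 CPM) and day 14 replicate 2 (0.128 CPM), and Slc22a16 in day 14 replicate 1 (0.0591 CPM). Scgb3a1 and Bpifa1, genes of secretory airway cells, stood out in the same 2 libraries. Scgb3a1 reached 153.8 CPM in day 7 replicate 4 (6.70 to 29.9 CPM in the rest) and 15.3 CPM in day 14 replicate 1 (2.17 to 4.40 CPM in the rest). Bpifa1 reached 330.3 CPM in day 7 replicate 4 against 24.4 to 43.0 CPM, and 59.6 CPM in day 14 replicate 1 against 0.915 to 2.23 CPM.

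Day 7 replicate 4 also stood out in the summed heart markers (616 CPM, 25.5 to 53.0 CPM in the rest) and fat cell markers (137 CPM, 9.43 to 29.0 CPM in the rest). The sum of alveolar type 2 cell markers was low in day 7 replicate 2, at 19500 CPM against 27430 to 28010 CPM. The sum of alveolar fibroblast markers was low in day 0 replicate 2, at 3745 CPM against 4350 to 4444 CPM, and in day 14 replicate 2, at 1355 CPM against 1963 to 2064 CPM. In day 0 replicate 3 the liver markers summed to 0.571 CPM (0.837 to 0.847 CPM in the rest), and the other drug-metabolizing enzymes to 15220 CPM against 13330 to 13580 CPM.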

How the results depend on the processing

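Of 630 values recomputed for 36 results under 11 other settings and with each of 15 libraries left out, 615 kept their direction and their side of the threshold (for counts, stayed within 1.5 times). The Blmh difference at day 21 turned from 0.14 to -0.021 without day 21 replicate 3 and ran up to 0.175 with other libraries left out. From day 7 to day 14, the number of the 9 genes called was 2 once the mitochondrial share entered the fit and 2 to 6 with 1 library left out, against 5. From day 14 to day 21 it was 2 in DESeq2 and 0 to 1 with 1 library left out, against 0, and from day 7 to day 21 it was 5 in DESeq2 and 5 with no filter on low counts, against 3. The other drug-metabolizing enzymes called at day 7 numbered 12 with the mitochondrial covariate, against 20. Over all genes, that covariate gave 1269 calls at day 7 against 2818 and 218 from day 7 to day 14 against 1048, where DESeq2 gave 1638. The cause of these differences was not tested. With a replicate block the 9 genes gave 5, 7 and 7 calls at days 7, 14 and 21 against day 0, as without it, and the block changed no call count by over 1.5 times. The 21 same-numbered pairs of libraries had correlations of -0.244 to 0.397 in their deviations from the day means (median 0.0406, 8 over 0.1). The 63 differently numbered pairs had -0.326 to 0.258 (median -0.032, 13 over 0.1). The ranges overlap, so this check does not settle whether the numbers pair the libraries. At 15652008 counts or more a library, Nr1i3 and Slc22a16 lay at or under 3 counts in each library and were below what this depth can compare.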
